A study of Saccharomyces cerevisiae with 4 samples.

Results

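The nuclear genes of the mitochondrial respiratory chain and ATP synthase were followed in yeast carrying an altered RNA polymerase II C-terminal domain (CTD). The set was built from named ORFs, and each probe was taken whose identifier starts with a listed ORF. It holds 40 genes of the 6210 probes in the table. They encode subunits of succinate dehydrogenase (2 genes), the cytochrome bc1 complex (9), cytochrome c oxidase (9) and ATP synthase with its inhibitors (15), and in addition the cytochromes c (2) and the NADH dehydrogenases (3). Genes of chromosome XI were left out of the set, because probes of that chromosome were shifted upward as a whole on these arrays (median log2 ratio 0.89 over 317 probes). The rule itself uses ORF names and no ratios, but the set was drawn up with earlier results of these data known.

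RNA came from log-phase cultures in YPD, a rich glucose medium, of 2 transformants of the yeast strain Z26. In the 5A mutant, the only copy of the largest polymerase subunit carried a CTD with 5 alanines inserted between the paired heptads, brought in on a LEU2-linked plasmid after loss of the URA3-linked wild-type gene on 5-fluoroorotic acid. The control cells went through the same plasmid exchange with heptads of the WT sequence, so both strains are plasmid-dependent. Each of the 4 spotted oligonucleotide arrays set 1 RNA replicate of the 5A mutant (Cy5) against 1 of the WT control (Cy3). Dyes were never swapped, so dye bias at a probe and its expression ratio cannot be told apart. Whether the replicates were separate cultures is not given in the sources used here, and p-values then measure only the spread between these arrays. How many growth cycles the array cultures had passed after the plasmid exchange is likewise not given. The values are log2 ratios of the 5A mutant over the control, so that 0 means equal signal and 1 means 2-fold higher in the 5A mutant.

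In the respiratory chain, electrons from NADH and succinate enter through dehydrogenases, pass through the bc1 complex and cytochrome c, and reach oxygen at cytochrome c oxidase. The proton gradient built on the way drives ATP synthase. Budding yeast has no proton-pumping complex I and uses single-subunit NADH dehydrogenases instead. Most subunits are encoded in the nucleus and a few in mitochondrial DNA, and in glucose medium many of the nuclear genes are held low by glucose repression and are raised by the HAP transcription factors when cells respire. CYC7 and COX5B are the low-oxygen counterparts of CYC1 and COX5A.

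Most of these genes were higher in the 5A mutant. All 40 members had a value on each of the 4 arrays. The mean was above 0 for 35, and 33 were above 0 on every array, against 26.8% of all probes with 4 values. With limma over 6157 probes and an adjusted p under 0.05, 31 members rose and 3 fell, while 6 did not pass. Over all probes 40.5% were called, 19.8% higher and 20.7% lower. The median of the 40 mean log2 ratios was 0.75, against -0.01 over all probes tested. On arrays 1 to 4 the median of the members was 0.68, 0.70, 0.91 and 0.74, while the median of an array over all its probes stayed between -0.01 and -0.00340. The means passed 2-fold upward for 8 members, where 5.75% of all probes did so, and downward for 1, against 8.66% of all probes. Of the 31 rises, 8 were thus past 2-fold. Of the 34 calls, 19 were kept whichever array was left out, all of them of higher genes. Without array 1, 3 or 4, limma called 24, 24 and 25 members higher and 0 lower, with 1, 2 and 3 lower at an unadjusted p under 0.05.

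**Figure D1:**
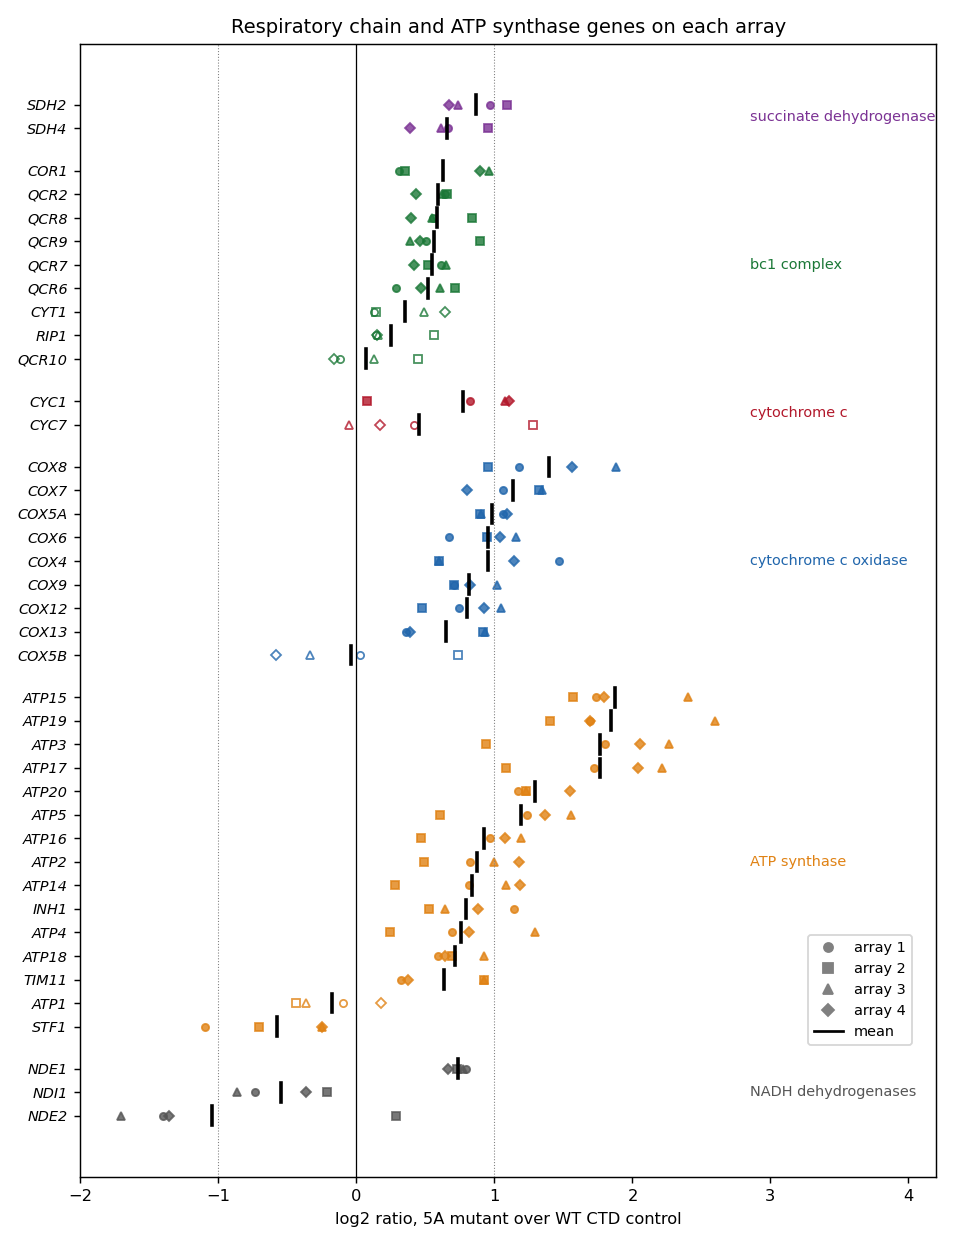
Log2 ratio (5A mutant over WT CTD control, horizontal axis) of each of the 40 genes on the 4 arrays, grouped by complex, with the mean as a black bar; filled symbols mark genes called by limma and dotted lines mark 2-fold. Of the 40 genes, 33 lie to the right of 0 on all 4 arrays.

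The NADH dehydrogenases did not move together. NDE1 (YMR145C), the main external enzyme, which oxidizes cytosolic NADH, was at 0.80, 0.73, 0.77 and 0.66 on the log2 scale and averaged 0.74 ± 0.06 (SD, n = 4, limma adjusted p = 0.00400). The arrays lay closer together for it than for any other member. NDI1 (YML120C), the internal enzyme that passes electrons from matrix NADH to ubiquinone, was at -0.74, -0.21, -0.87 and -0.36, or -0.54 ± 0.31 on average (SD, n = 4, limma adjusted p = 0.0299). NDE2 (YDL085W), the second external enzyme, was at -1.40, 0.28, -1.70 and -1.36. It was thus lower on arrays 1, 3 and 4 and not on array 2, with an average of -1.05 ± 0.90 (SD, n = 4, limma adjusted p = 0.0360). The calls of NDI1 and NDE2 were lost without array 1, 3 or 4 (limma adjusted p between 0.0728 and 0.135). Without array 2, NDE2 was at -1.49 (limma adjusted p = 0.000486).

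Both genes of succinate dehydrogenase in the set rose. This enzyme links the citric acid cycle to the respiratory chain. SDH2 (YLL041C), its iron-sulfur subunit, was at 0.97, 1.09, 0.74 and 0.67 on the 4 arrays and at 0.87 ± 0.20 on average (SD, n = 4, limma adjusted p = 0.00332). SDH4 (YDR178W), a membrane anchor, was at 0.67, 0.95, 0.62 and 0.39, with an average of 0.66 ± 0.23 (SD, n = 4, limma adjusted p = 0.0110). For both, array 2 gave the highest ratio and array 4 the lowest. The call of SDH4 was lost without array 1 (limma adjusted p = 0.0517).

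The bc1 complex, which carries electrons from ubiquinol to cytochrome c, had a lower median than cytochrome c oxidase and ATP synthase. Of its 9 genes, 6 rose and 3 did not pass, and the median was 0.55. None reached 2-fold, and the 6 that rose had means between 0.52 and 0.63. The core subunit COR1 (YBL045C) was at 0.31, 0.35, 0.96 and 0.89, and QCR2 (YPR191W), the other core subunit, at 0.64, 0.66, 0.62 and 0.43. The means of this pair were 0.63 ± 0.35 and 0.59 ± 0.11 (SD, n = 4, limma adjusted p = 0.0215 and 0.0103). Of the 5 small subunits without a redox group, 4 had means close to those of the core subunits. QCR8 (YJL166W) averaged 0.58, QCR9 (YGR183C) 0.56, QCR7 (YDR529C) 0.55 and QCR6 (YFR033C) 0.52, with every array above 0 for each of them (limma adjusted p between 0.0129 and 0.0206).

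The 2 catalytic subunits of the bc1 complex that are encoded in the nucleus were among the genes that did not pass. CYT1 (YOR065W), cytochrome c1, was at 0.13, 0.14, 0.49 and 0.64, with an average of 0.35 ± 0.26 (SD, n = 4, limma adjusted p = 0.0947). RIP1 (YEL024W), the Rieske iron-sulfur protein, was at 0.14, 0.56, 0.15 and 0.15 and averaged 0.25 ± 0.21 (SD, n = 4, limma adjusted p = 0.177). Both were above 0 on all 4 arrays. QCR10 (YHR001W-A), the remaining small subunit, was at -0.12, 0.44, 0.12 and -0.16 and averaged 0.07 (limma adjusted p = 0.721). None of the 6 calls of this complex was kept with each array left out in turn. Without array 1, QCR2, QCR7, QCR8 and QCR9 were not called, and without array 3 or 4 COR1 and QCR6 were not, with QCR7 in addition for array 3 and QCR9 for array 4 (limma adjusted p between 0.0543 and 0.100).

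Cytochrome c, the small carrier between the bc1 complex and the oxidase, is made from a pair of genes in yeast. CYC1 (YJR048W), which gives most of the protein in air, was at 0.82, 0.08, 1.07 and 1.11, with an average of 0.77 ± 0.48 (SD, n = 4, limma adjusted p = 0.0199). It lost its call without array 1, 3 or 4 (limma adjusted p between 0.0782 and 0.0885), and was at 1.00 without array 2 (limma adjusted p = 0.00156). CYC7 (YEL039C), the low-oxygen form, was at 0.42, 1.28, -0.05 and 0.17 and averaged 0.45 ± 0.58 (SD, n = 4, limma adjusted p = 0.145). Array 2 was the lowest of the 4 for CYC1 and the highest for CYC7.

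Cytochrome c oxidase, the terminal enzyme, had a median of 0.95, and 8 of its 9 genes rose. This was above the median of ATP synthase (0.87), an order that turned without array 1 (0.85 for the oxidase and 0.89 for ATP synthase), without array 2 (0.96 and 1.03) and for the mean over genes (0.85 and 0.97). COX8 (YLR395C) was at 1.18, 0.95, 1.88 and 1.56 and averaged 1.39 ± 0.41 (SD, n = 4, limma adjusted p = 0.00177), a 2.63-fold higher level. COX7 (YMR256C) was at 1.06, 1.32, 1.34 and 0.80, with an average of 1.13 ± 0.25 (SD, n = 4, limma adjusted p = 0.00175). These 2 small structural subunits were the genes of the oxidase past 2-fold. COX5A (YNL052W), the aerobic form of subunit V, followed just short of it at 1.06, 0.89, 0.90 and 1.09, or 0.99 ± 0.10 on average (SD, n = 4, limma adjusted p = 0.00165).

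The other called genes of the oxidase lay between 0.65 and 0.96 on average. COX6 (YHR051W) was at 0.67, 0.95, 1.16 and 1.04 (limma adjusted p = 0.00254). COX4 (YGL187C) was at 1.47, 0.60, 0.60 and 1.14, the widest spread among the called genes of the oxidase (SD 0.43, limma adjusted p = 0.00716). COX9 (YDL067C) was at 0.71, 0.71, 1.02 and 0.82 (limma adjusted p = 0.00349). All arrays were thus above 0 for these structural subunits. COX12 (YLR038C) averaged 0.80 ± 0.25 and COX13 (YGL191W) 0.65 ± 0.32 (SD, n = 4), and on single arrays they ranged from 0.36 to 1.05. COX13 lost its call without array 3 (limma adjusted p = 0.0733), and the other 7 calls of the oxidase were kept whichever array was left out. COX5B (YIL111W), the low-oxygen form of subunit V, was the gene of this complex that did not pass. Its ratios of 0.02, 0.73, -0.34 and -0.58 fell on both sides of 0 (mean -0.04 ± 0.57, SD, n = 4, limma adjusted p = 0.891).

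ATP synthase held the largest rises of the 40 genes, with a median of 0.87. Of its 15 genes 13 rose, 1 fell and 1 did not pass, and 6 of the 8 members past 2-fold were among them. In the catalytic head, ATP15 (YPL271W), the epsilon subunit of the central stalk, was at 1.73, 1.57, 2.40 and 1.80 and averaged 1.87 ± 0.36 (SD, n = 4, limma adjusted p = 0.000586), or 3.67-fold. ATP3 (YBR039W), the gamma subunit that turns inside the head, was at 1.80, 0.94, 2.27 and 2.05, with an average of 1.76 ± 0.58 (SD, n = 4, limma adjusted p = 0.00169). The delta subunit gene ATP16 (YDL004W) was at 0.97, 0.47, 1.19 and 1.08 (mean 0.93, limma adjusted p = 0.00456). All 3 genes of the central stalk were therefore higher on every array.

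The genes of the alpha and beta subunits, which together form the hexameric head, differed. ATP2 (YJR121W), the catalytic beta subunit, was at 0.82, 0.49, 1.00 and 1.17 and averaged 0.87 ± 0.29 (SD, n = 4, limma adjusted p = 0.00515). ATP1 (YBL099W), the alpha subunit, was at -0.09, -0.44, -0.37 and 0.18, with an average of -0.18 ± 0.28 (SD, n = 4, limma adjusted p = 0.366). On every array the ratio of ATP1 was below that of ATP2, and the ranges of the pair did not overlap. This contrast was picked after the values were seen and was not tested.

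All 3 genes of the set that encode the stator stalk, which holds the head still, rose. ATP5 (YDR298C) was at 1.24, 0.60, 1.55 and 1.37, with an average of 1.19 ± 0.41 (SD, n = 4, limma adjusted p = 0.00294). ATP14 (YLR295C) was at 0.81, 0.28, 1.09 and 1.19, and ATP4 (YPL078C) at 0.69, 0.24, 1.30 and 0.82 (limma adjusted p = 0.0104 and 0.0167). Array 2 was the lowest for all 3 stator genes. ATP4 was not called without array 1, 3 or 4, nor ATP14 without array 4 (limma adjusted p between 0.0515 and 0.0653 for the pair).

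Among the small subunits of the membrane sector, ATP17 (YDR377W), subunit f, was at 1.72, 1.08, 2.21 and 2.04, or 1.76 ± 0.50 on average (SD, n = 4, limma adjusted p = 0.00120). ATP19 (YOL077W-A), subunit k, was at 1.69, 1.40, 2.60 and 1.69 and averaged 1.85 ± 0.52 (SD, n = 4, limma adjusted p = 0.00114). ATP20 (YPR020W), subunit g, was at 1.17, 1.23, 1.23 and 1.54, with an average of 1.29 ± 0.17 (SD, n = 4, limma adjusted p = 0.000848). Subunits e, g and k are found with the dimeric enzyme, so the rise covered genes of the monomer and of the dimer. ATP18 (YML081C-A) followed at 0.71 ± 0.15 and TIM11 (YDR322C-A), subunit e, at 0.63 ± 0.33 (SD, n = 4). TIM11 was at 0.32, 0.92, 0.92 and 0.37 and lost its call without array 3 (limma adjusted p = 0.0825).

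The inhibitor genes moved in opposite directions. INH1 (YDL181W), whose protein blocks ATP hydrolysis by the enzyme, was at 1.14, 0.52, 0.64 and 0.88 and averaged 0.80 ± 0.27 (SD, n = 4, limma adjusted p = 0.00637). STF1 (YDL130W-A), a related inhibitor, was below 0 on all 4 arrays, at -1.10, -0.70, -0.25 and -0.25, with an average of -0.58 ± 0.41 (SD, n = 4, limma adjusted p = 0.0392). The call of STF1 was lost whichever array was left out (limma adjusted p between 0.0565 and 0.155).

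**Figure D2:**
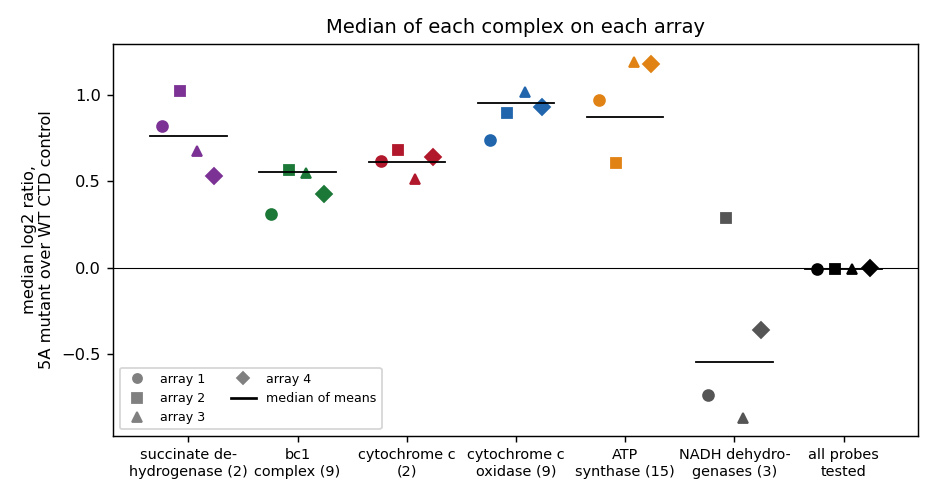
Median log2 ratio (5A mutant over WT CTD control, vertical axis) of each complex on each of the 4 arrays, with the number of genes in brackets and a line at the median of the gene means. The medians of the bc1 complex lie between 0.31 and 0.56, those of cytochrome c oxidase between 0.74 and 1.02 and those of ATP synthase between 0.60 and 1.19.

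By complex, the medians on arrays 1 to 4 were 0.31, 0.56, 0.55 and 0.43 for the bc1 complex, and 0.74, 0.89, 1.02 and 0.93 for cytochrome c oxidase. The oxidase was above the bc1 complex on every array. For ATP synthase they were 0.97, 0.60, 1.19 and 1.17, above the oxidase on arrays 1, 3 and 4 and below it on array 2. Genes of 1 complex are not replicates of each other, so no test was made of these differences. Array 2 had the smallest spread over all probes, with a standard deviation of 0.74 against 0.86 to 0.97 on the others. It gave the lowest ratio for 11 of the 15 ATP synthase genes and the highest for 6 of the 9 bc1 genes. Across the 40 genes, which share the arrays and are not independent, array 2 correlated with the other arrays with Pearson's r between 0.456 and 0.655, whereas arrays 1, 3 and 4 correlated among themselves with r between 0.888 and 0.932. Without array 2, 31 members were called higher and 2 lower, and 12 instead of 8 were past 2-fold upward.

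In 3 cases the chain has a pair of isoforms, and the genes of a pair were compared within each array. The ratio of COX5A exceeded that of COX5B by 1.03, 0.16, 1.24 and 1.68, a mean difference of 1.03 ± 0.64 (SD, n = 4, two-sided exact sign-flip permutation p = 0.125). That of NDE1 exceeded that of NDE2 by 2.20, 0.45, 2.47 and 2.02, or 1.78 ± 0.91 on average (SD, n = 4, exact permutation p = 0.125). Both differences had the same sign on 4 of 4 arrays, and 0.125 is the smallest p that 4 arrays can give. Between CYC1 and CYC7 the differences were 0.40, -1.20, 1.13 and 0.94, positive on 3 of 4 arrays, with an average of 0.32 ± 1.06 (SD, n = 4, exact permutation p = 0.625), and the mean was 0.82 without array 2. Adjusted over the 3 pairs the exact p-values were 0.188, 0.188 and 0.625, so no pair could be called. The oligonucleotide sequences were not analysed here, and cross-hybridization within a pair was not tested.

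**Figure D3:**
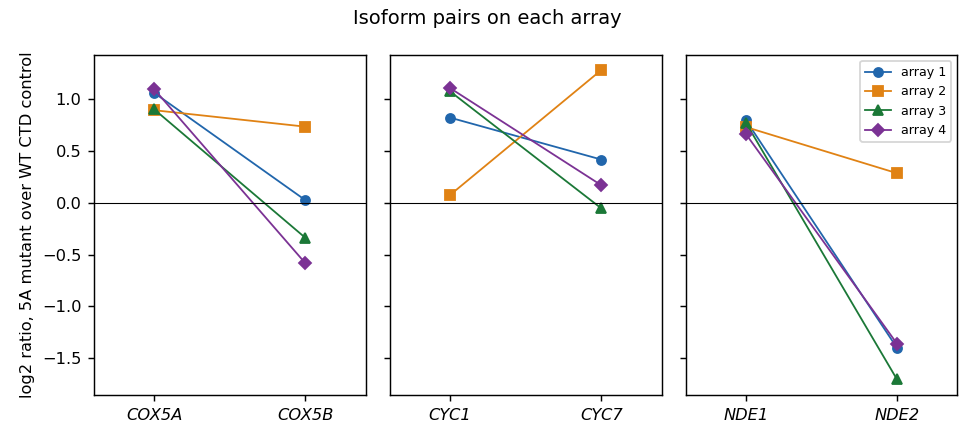
Log2 ratio (5A mutant over WT CTD control, vertical axis) of both genes of each isoform pair, with 1 line per array. The aerobic COX5A and the external NDE1 sit above COX5B and NDE2 on all 4 arrays, and array 2 alone puts CYC1 below CYC7.

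Subunits of the same enzymes are also encoded in mitochondrial DNA and on chromosome XI. The 27 mitochondrial probes had a median of 2.92, so these subunits have to be read beside an upward shift that many, but not all, mitochondrial probes shared. Of the 7 mitochondrially encoded genes of the chain, 5 rose, with means between 4.24 and 6.00, above every nuclear member. COX1, the core of the oxidase, was at 6.11, 5.35, 6.69 and 5.83 (mean 6.00 ± 0.56, SD, n = 4, limma adjusted p = 1.75e-05). COX2, COX3, ATP6 and ATP8 were likewise called, while OLI1, the gene of the membrane ring of ATP synthase, was at 0.41, 0.01, 0.65 and 0.26 (limma adjusted p = 0.112). COB, cytochrome b of the bc1 complex, was at -0.41, 0.09, -1.37 and -0.92, or -0.65 ± 0.63 on average (SD, n = 4, limma adjusted p = 0.0634). It was called lower without array 2 (-0.90, limma adjusted p = 0.0103) and with array weights (-0.80, limma adjusted p = 0.00721), and was at -0.41 without array 3. The median of all 7 was 4.28, with COB and OLI1 far below the rest. Nuclear subunit genes on chromosome XI have to be read beside the shift of that chromosome. ATP7, a stator gene, was at 2.39, 1.32, 2.54 and 2.10 (mean 2.09 ± 0.54, SD, n = 4, limma adjusted p = 0.000851), and at 1.20 after each nuclear chromosome was centred on its median. SDH3, the second membrane anchor of succinate dehydrogenase, was at -0.59, -0.57, -1.46 and 0.56, with a mean of -0.52 (limma adjusted p = 0.197). It was called lower after chromosomes were centred (-1.40, limma adjusted p = 0.0104) and without array 4 (-0.87, limma adjusted p = 0.0387), and was at -0.20 without array 3 (limma adjusted p = 0.601). SDH1 had a value on array 3 only, of -1.03, and was not tested.

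Genes whose products assemble these enzymes, or promote expression of their mitochondrial subunits, had a median below 0. Of 40 such genes with a probe, 3 were called higher and 9 lower, and 28 did not pass. Their median was -0.23. The higher calls were 7.5% of the list, against 77.5% of the subunit genes and 19.8% of all probes, while the 9 lower calls are near the share over all probes (20.7%). COX10, which farnesylates heme on the way to the oxidase, was at -1.25, -0.60, -0.95 and -0.74 (mean -0.89 ± 0.28, SD, n = 4, limma adjusted p = 0.00456). The highest mean of the list was that of SDH5, which attaches FAD to the succinate dehydrogenase flavoprotein, at 0.43, 0.91, 0.81 and 0.32 (mean 0.62 ± 0.28, SD, n = 4, limma adjusted p = 0.0172), a call lost without array 1 or 3. Within the list, 2 of 3 succinate dehydrogenase factors were called higher (median 0.57). Of 7 ATP synthase factors 3 were called lower, of 23 oxidase factors 4 lower and 1 higher, of 2 cytochrome c factors 2 lower, and of 5 bc1 factors none in either direction by limma, also at an unadjusted p under 0.05. Counts in this list moved with the arrays used. Without array 1, 3 or 4 it held 3, 4 and 3 genes called lower, and without array 2 it held 14. Calls over all probes moved in the same direction. In either direction, 1438 of 6111 probes were called without array 1, 1501 of 6135 without array 3 and 1492 of 6137 without array 4. Without array 2 it was 3120 of 6087.

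**Figure D4:**
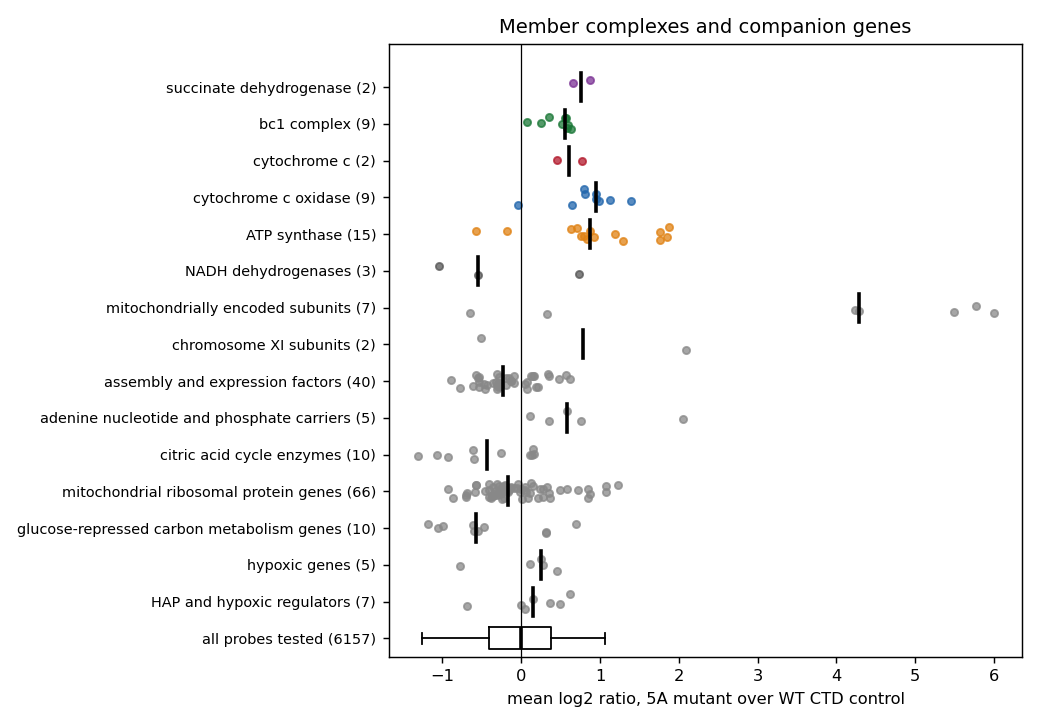
Mean log2 ratio (5A mutant over WT CTD control, horizontal axis) of each gene in the 6 groups of members (coloured) and in companion lists (grey), with black bars at the medians and, at the bottom, a box of the quartiles of all 6157 probes tested with whiskers at the 5th and 95th percentiles. The subunit genes of 5 groups have medians between 0.55 and 0.95, whereas the assembly factors have a median of -0.23.

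The carriers of the inner membrane bring ADP and phosphate to ATP synthase. PET9, the main ADP/ATP carrier of the inner membrane, was at 0.54, 0.65, 0.98 and 0.87 (mean 0.76 ± 0.20, SD, n = 4, limma adjusted p = 0.00560). MIR1, the phosphate carrier, had values on arrays 2 and 4 only, of 1.69 and 2.41 (limma adjusted p = 0.00390). Of the 5 carrier and pore genes 3 were called higher, MIR1 among them, against 19.8% of all probes. The hypoxic carrier AAC3 was the lowest at 0.11 (limma adjusted p = 0.520).

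Of 7 HAP and hypoxic regulators 2 were called higher and 1 lower, shares near the background of 19.8% and 20.7% of all probes. Among the HAP genes only HAP3 was called higher. HAP3, a DNA-binding subunit of the HAP complex, was at 0.36, 0.83, 0.71 and 0.58 (mean 0.62 ± 0.20, SD, n = 4, limma adjusted p = 0.0119) and lost its call without array 3 or 4. HAP5, its partner subunit, was at -0.70, -0.43, -0.87 and -0.73 (mean -0.68 ± 0.18, SD, n = 4, limma adjusted p = 0.00746). HAP4, the glucose-regulated activator subunit, lies on chromosome XI and was at 0.07, -0.12, 0.12 and 0.51 (mean 0.15 ± 0.26, SD, n = 4, limma adjusted p = 0.454). With chromosomes centred on their medians it was at -0.74, and whether it was called in that setting is not given here.

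Other genes that mark how yeast uses glucose and oxygen were read beside the members. Of 10 glucose-repressed genes of carbon metabolism, 1 was called higher and 4 lower, with a median of -0.57. Beside the lists of this paragraph stand the shares of all probes, 19.8% called higher and 20.7% lower. Some of the glucose-repressed genes lie on the shifted chromosome XI, and with chromosomes centred the median of that list was again -0.57. ADH2, the alcohol dehydrogenase that oxidizes ethanol, averaged -1.18 ± 0.34 (SD, n = 4, limma adjusted p = 0.00223). CAT8, an activator of gluconeogenic genes, was at -0.64, -0.35, -1.55 and -1.71 (mean -1.06 ± 0.67, SD, n = 4, limma adjusted p = 0.0143) and lost its call without array 3 or 4. FBP1, a gluconeogenic enzyme, was at 0.34, 0.64, 0.69 and 1.10 (mean 0.69 ± 0.31, SD, n = 4, limma adjusted p = 0.0131) and lost its call without array 4. Of 5 hypoxic genes, HMG2 was called higher at 0.45 ± 0.27 (SD, n = 4, limma adjusted p = 0.0464), a call lost whichever array was left out. OLE1, the fatty acid desaturase, had the lowest mean, -0.78, with ratios between -1.84 and 0.10 (limma adjusted p = 0.0879). It was called lower without array 2 (-1.07, limma adjusted p = 0.0236) and with array weights (-1.07, limma adjusted p = 0.00919), and was at -0.42 without array 1 (limma adjusted p = 0.294). CIR2, of the 3 other electron donors, was called lower, with -0.58 ± 0.47 on average (SD, n = 4, limma adjusted p = 0.0487), a call lost without array 2, 3 or 4. Growth rate, which the study describes as slower in the 5A mutant, cannot be told apart from the CTD change in these cultures.

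The members are spread over 13 nuclear chromosomes, 10 of them on chromosome IV, and the medians of these chromosomes lay between -0.17 and 0.02. Centring each nuclear chromosome on its median left 31 members called higher and 2 lower, with NDI1 no longer called (limma adjusted p = 0.0549). As a group, the genes next to the members lay near the level of all probes. Among the 80 nearest probes on either side, 13 were called higher and 17 lower, and their median was 0.05. For all probes tested the shares were 19.8% higher and 20.7% lower, with a median of -0.01. Of all 40 members, 31 lay above both of their neighbours, as did 26 of the 31 members that rose. Those that rose were picked for high means of their own, so the second count is largely set by that choice. Neither count was tested, and the share of all probes that lie above both neighbours was not counted. Sharp contrasts included ATP3 at 1.76 beside FIG1 at -1.42, ATP17 at 1.76 beside ARH1 at -1.84, and ATP2 at 0.87 beside IBA57 at -1.50. Among the exceptions, COX4 at 0.95 lies next to the ribosomal protein gene RPS26A at 1.05, and COR1 at 0.63 next to the ORF YBL044W at 1.60.

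**Figure D5:**
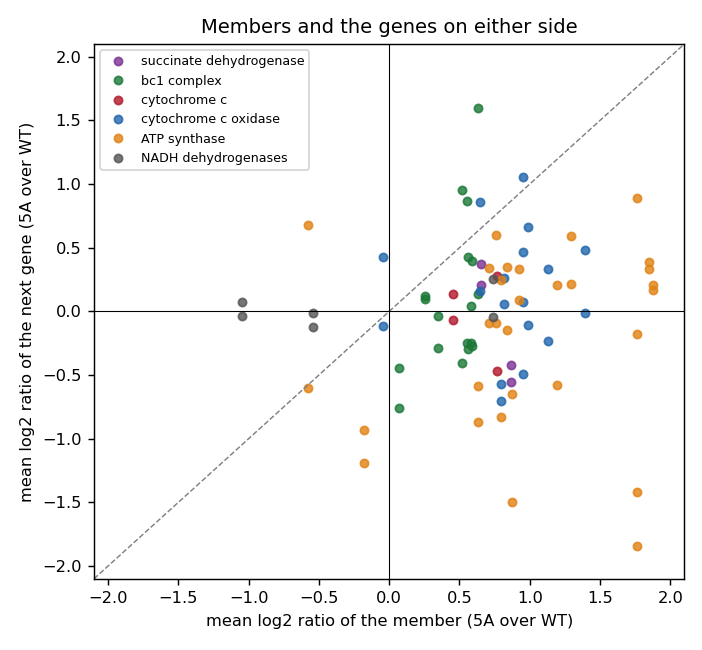
Mean log2 ratio of each member (5A mutant over WT CTD control, horizontal axis) against that of the nearest probe on each side of it (vertical axis), coloured by complex, with the dashed line at equality. Both points lie below the line for 31 of all 40 members and for 26 of the 31 that were called higher, which were picked for high means. The same share over all probes was not counted. The median of the 80 neighbours is 0.05.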

How the data were processed

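The authors hybridized RNA of the 5A mutant (Cy5) and the WT control (Cy3) on 4 spotted arrays, read them with a GenePix scanner, normalized them in the BASE database and deposited a log2 ratio for each probe and array. The normalization and background methods are not given in the sources used here, and spot intensities were not analysed here. Base and direction were read from the values, because 325 and 493 of 5955 probes with 4 values had means at or above 1 and at or below -1, the split that the fold cut-offs of the methods give for up- and down-regulated genes.

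The mean of each probe with at least 2 values was tested against 0 in limma 3.58.1 under R 4.3.3 (eBayes, Benjamini-Hochberg adjustment over all 6157 probes, threshold 0.05). On simulated data the fit recovered 11.9% of probes shifted by 0.5 on the log2 scale and 92.5% of those shifted by 1. There 200 of 6157 probes were changed, whereas 40.5% were called on the real arrays, so these rates need not hold for them. A gene that did not pass is not thereby shown to be unchanged. Symbols and neighbours came from the RefSeq table of assembly R64, in which 5724 probes and all 40 members matched. The number of arrays limits the precision. Members, lists and alternatives were chosen with earlier results of these data known; the citric acid cycle and mitochondrial ribosomal lists were added last. All 40 members could be named, and of a companion list the highest and lowest gene and those called past 2-fold. PET9, HAP4, CIT1, LPD1, KGD1, KGD2, PET54, ATP22, LSC2, ACS1 and neighbours shown as contrasts were also picked after their values were seen. Alternatives were other centring and scaling of arrays and chromosomes, complete values, array weights, robust eBayes, a one-sample test without eBayes and each array left out. Python 3.11.15 with pandas 2.3.3 and matplotlib 3.10.9 was used for summaries and figures.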

Additional observations from a re-analysis of the deposited data

Results flagged for a closer look

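The 4 array values of 80 genes were checked for a single distant array, which chance alone gives in about 1 in 20 cases, and 3 genes had one. RIP1 was at 0.56 on array 2, against 0.14 to 0.15 on the other arrays. ATP20 was at 1.54 on array 4, against 1.17 to 1.23. CYB2, the lactate dehydrogenase that feeds electrons to cytochrome c, was at 0.86 on array 2, against -0.62 to -0.40 on the others. Of these distant values, 2 came from array 2 and 1 from array 4. The 80 genes did not include every gene of the companion lists, and some of those left out also had a distant value on array 2. PET54 was at 0.59 and ATP22 at 0.55 there, against -0.02 to 0.01 and 0.05 to 0.07 on the others. LSC2 was at 0.24 and ACS1 at 1.26, against -0.93 to -0.81 and -1.38 to -1.04.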

How the results depend on the processing

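Centring the arrays, requiring 4 values and robust eBayes kept the direction and the call of all 40 members. A common spread of the arrays kept all calls, with 0 members past 2-fold downward instead of 1. The sign of COX5B, which was not called, turned under a common spread (0.01), with chromosomes centred (0.05) and without array 3 or 4 (0.06 and 0.14), and that of QCR10, also not called, with array weights (-0.05) and without array 2 (-0.05). Array weights added 1 call, of CYT1, and with them 5 assembly factors were called higher and 18 lower. The plain one-sample test with Benjamini-Hochberg adjustment, which borrows no spread from other probes, called 14 members higher and 0 lower, and 0 assembly factors higher and 1 lower; at an unadjusted p under 0.05, 1 member was lower and 3 assembly factors were higher in it. With 1 array left out, 24 to 31 members were called higher by limma and 0 to 2 lower, 8 to 12 were past 2-fold upward and 0 to 1 downward, and 0 to 3 assembly factors were called higher and 3 to 14 lower. At an unadjusted p under 0.05, these fits had 1 to 3 members lower and 2 to 4 assembly factors higher. Over all probes 11.3%, 25.2%, 11.5% and 11.5% were called higher without array 1, 2, 3 and 4. For array weights and the one-sample test, the share of all probes called is not given here. Whether the counts under those settings moved more than the background therefore cannot be read from them. Averaging genes in place of taking the median moved the mitochondrially encoded subunits to 3.64, against a median of 4.28, and the hypoxic genes to 0.0638, against 0.25. The 2 tested subunits of chromosome XI had a median of 0.79, which was -0.10 after chromosomes were centred. The medians of the 6 member groups moved by less than their spread over arrays under other centring or scaling, complete values, the mean over genes and each array left out, the alternatives run for them. The pairing of 5A and WT samples was part of every fit, because each array already holds the ratio of 1 pair.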

Other observations

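Other mitochondrial genes were counted in the same way, in lists chosen after values were seen. Of 10 citric acid cycle enzymes outside chromosome XI, 0 were called higher and 4 lower by limma at an adjusted p under 0.05, with a median log2 ratio of -0.43. The same threshold called 19.8% of all probes higher and 20.7% lower. At an unadjusted p under 0.05, 0 were higher by limma and by the one-sample test without eBayes. IDH1, a subunit of NAD-dependent isocitrate dehydrogenase, was at -1.47, -1.32, -1.31 and -1.16 (mean -1.31 ± 0.13, SD, n = 4, limma adjusted p = 0.000727). ACO1, aconitase, averaged -1.06 ± 0.27 and CIT1, citrate synthase, -0.92 ± 0.38 (SD, n = 4, limma adjusted p = 0.00223 and 0.00636). LPD1, KGD1 and KGD2, which form the 2-oxoglutarate dehydrogenase, averaged between 0.14 and 0.17 and were not called. SDH2 and SDH4, whose enzyme belongs to the cycle and to the chain, were at 0.87 and 0.66. The subunits of that enzyme on chromosome XI did not share this rise. SDH3 was at -0.52 and not called, and SDH1 was at -1.03 on array 3, its only value.

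Of 66 genes whose symbols mark them as mitochondrial ribosomal proteins, 8 were called higher and 13 lower, with a median of -0.17. Outside chromosome XI, 2 of 59 were called higher and 13 lower, or 3.39% higher against 77.5% of the 40 subunit genes and 19.8% of all probes. With or without chromosome XI, the 13 lower calls are near the share over all probes (20.7%).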
